A study of Mus musculus with 6 samples.

Results

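The Fos and Jun genes encode the subunits of AP-1, a transcription factor that binds DNA as a dimer. The 6 genes Fos, Fosb, Fosl2, Jun, Junb and Jund were taken from the deposited table of mouse hippocampus (HIPP) by gene symbol. Each has 1 row among the 16060 rows of the table, and all 6 passed the filter on low values that left 13321 genes. All mice were adult male C57BL/6. The Control mice (3 libraries) were injected with saline. The MA mice (3 libraries) were injected with methamphetamine (MA), a psychostimulant, in doses that were raised over 3 weeks. Mice of both groups went through the open field and elevated plus maze tests and were killed directly afterward, so every library comes from an animal that had just been handled and tested. HIPP was sequenced, and each library was taken here to be 1 mouse. The sources used here do not say whether the whole HIPP was taken or whether RNA was pooled. Here Control and MA mean the libraries labelled so in the table. The sources used here leave doubt about which way these labels run, and nothing in the table could check them. If they were exchanged, the sign of each difference between the groups below would turn, while its size, its error and its p-value would stay.

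In the brain, Fos, Fosb and Junb are immediate early genes, which neurons transcribe briefly after synaptic or hormonal stimulation without the need for new protein. Their activation runs through calcium, cAMP and ERK signals that reach CREB and serum response factor on DNA already bound by these factors. Fos proteins bind DNA mainly as partners of a Jun protein, whereas Jun proteins can also pair with each other. Jund is the steadily expressed member of the family in most tissues, and the FosB gene also gives a truncated, long-lived form known from work on repeated drug exposure. The table has 1 value per gene, so these 2 forms of Fosb were not told apart.

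The values were read as log2(RPKM + 1). RPKM is the number of reads scaled by the length of the gene and the size of the library, and levels on the linear scale below were back-transformed under that reading. The base of the logarithm and the offset of 1 were inferred from the values. The libraries had nearly the same distribution of values. This was taken as a normalization before deposit, which the sources used here do not describe. The depth of each library is unknown. The mean Pearson correlation of a library with the others of its group, over tested genes, ranged from 0.978 for MA replicate 3 to 0.993. All 12 markers of hippocampal pyramidal and granule neurons were present, with a summed level between 2013 and 2568 in the 6 libraries. All 8 markers of the choroid plexus, the epithelium that makes cerebrospinal fluid and lies against the HIPP, were higher in each MA library than in each control library. This held for 7.32% of all tested genes. Their summed level was between 65.9 and 422 in the control libraries and between 1780 and 5091 in the MA libraries. The summed level of 5 red blood cell genes was between 1599 and 2024 in the control libraries and between 3319 and 4378 in the MA libraries. The summed level of 6 thalamic markers was between 23.1 and 28.8 in the control libraries. It was 48.9, 64.9 and 22.2 in MA replicates 1, 2 and 3, so 2 of 3 MA libraries were above all control libraries. Of these 6 markers, 5 had a log2 difference above 0, and 0 were higher in each MA library than in each control library. The other, Rorb, had a log2 difference of -0.35 and was lower in each MA library, as were 10.2% of all tested genes. The sums for GABAergic neurons, astrocytes, oligodendrocytes, microglia and endothelium overlapped between the groups. No listed marker was at 0. The part of these differences in the values of the Fos and Jun genes was not tested. In bulk tissue, fewer cells of a type and less RNA per cell cannot be told apart.

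The sequences upstream of the 3 members that fell (below) are shown with that of Jun, which did not pass the test. The cAMP response element is marked because it is a binding site of CREB. The stretches were chosen by outcome, and a link between this site and the differences was not tested. Each stretch runs from position -140 to -11 relative to the RefSeq start of the gene on GRCm38.p6 and is given 5′ to 3′ on the strand of the gene. Capitals mark TGACG, the core of the cAMP response element. The stretches are chr12:85473750-85473879 on the plus strand for Fos, chr7:19310056-19310185 on the minus strand for Fosb, chr8:84978759-84978888 on the minus strand for Junb and chr4:95052233-95052362 on the minus strand for Jun. None of them overlapped an annotated exon.
Fos: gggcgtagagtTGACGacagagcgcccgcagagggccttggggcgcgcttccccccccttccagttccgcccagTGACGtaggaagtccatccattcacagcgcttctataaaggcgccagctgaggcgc
Fosb: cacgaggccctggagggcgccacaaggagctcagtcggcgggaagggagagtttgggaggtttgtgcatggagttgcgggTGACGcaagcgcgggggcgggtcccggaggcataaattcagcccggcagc
Junb: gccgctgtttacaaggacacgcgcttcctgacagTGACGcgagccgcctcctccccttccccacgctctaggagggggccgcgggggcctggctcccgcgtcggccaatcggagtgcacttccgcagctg
Jun: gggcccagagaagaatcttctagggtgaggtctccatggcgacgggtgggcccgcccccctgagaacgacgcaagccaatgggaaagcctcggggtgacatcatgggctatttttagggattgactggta

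In windows from 250 bases before to 50 bases after the RefSeq start, TGACG on either strand was found in Fos at positions -129 and -66, in Fosb at -60 and in Junb at -106. It was not found in the windows of Fosl2, Jun and Jund. Of all 32851 promoter windows of this length, 20.8% hold it. The full palindrome TGACGTCA, which contains the core, was in none of the 6 windows and in 1.79% of all windows. TGANTCA, the site that AP-1 itself binds, was in none of the 6 and in 7.81% of all, and the CArG box of serum response factor was in none of the 6 and in 1.63% of all. The RefSeq start lies 1210 bases from the GENCODE start for Jund, 671 bases for Fosl2 and 30 bases for Junb, so the windows of Jund and Fosl2 may not cover the start used in HIPP. These matches describe letters in 1 window and say nothing about binding. Sites more than 250 bases before the start were not searched, so a gene without a match may still have the site there. TATAAA, the TATA box, was also counted and was found in Fos at -33, in Junb at 1 and in 13.6% of all windows. Only these patterns were counted, and variants of them were missed. The Jun stretch above, for example, holds tgacatca, which differs from TGACGTCA in 1 letter.

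In the libraries labelled MA, whose labels are in doubt as stated above, Fos, Fosb and Junb fell relative to those labelled Control, whereas Fosl2, Jun and Jund did not pass the test. The question was whether chronic MA changed the family, and whether its members moved alike. The back-transformed level in MA was 28.3% of control for Fos, 31.8% for Fosb and 40.4% for Junb, against 78.8% for Fosl2, 104% for Jun and 110% for Jund. Thus 3 of the 6 members passed an adjusted p-value under 0.05, all 3 lower in MA (limma with Benjamini-Hochberg adjustment over 13321 genes). Of all tested genes 0.263% passed this threshold, and 0.0976% passed it with a lower level in MA. The 6 members were chosen with earlier results of these data known, so their calls are not independent evidence of a difference. In the same 3 members each MA library was below each control library, which held for 10.2% of all tested genes. No member was higher in each MA library than in each control library, which held for 7.32% of all tested genes. The median difference between MA and control was -0.79 on the log2 scale over the 6 members and -0.010 over all tested genes.

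**Figure D1:**
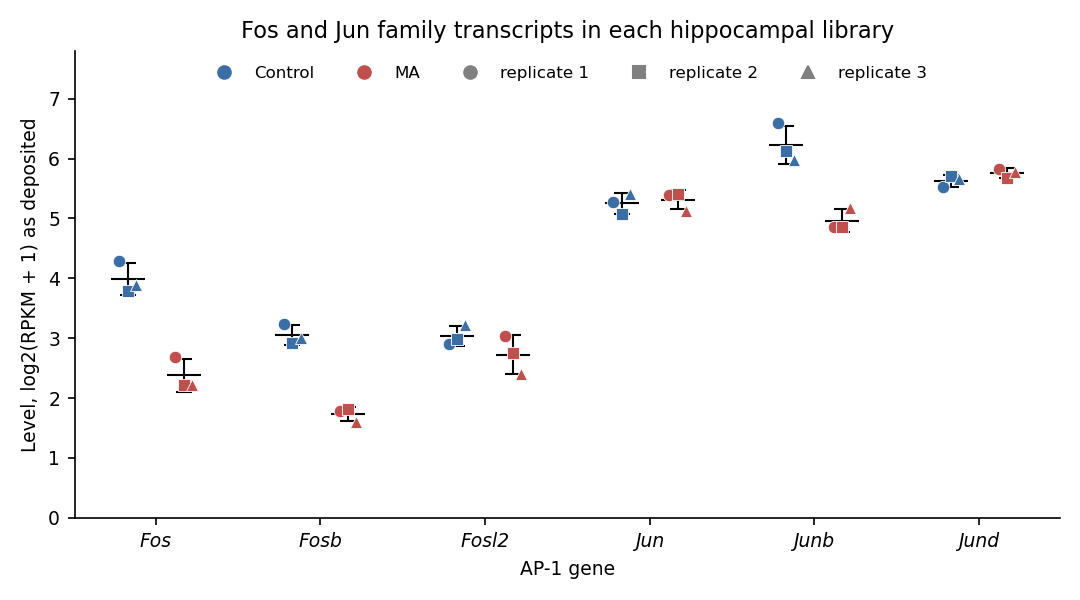
Level of each gene on the y axis, as deposited on the scale read as log2(RPKM + 1), in the 3 Control (blue) and 3 MA (red) libraries, where the symbol gives the replicate and black lines give the mean ± SD of 3 libraries. The MA libraries lie below the control libraries by at least 0.79 for Fos, Fosb and Junb and overlap with them for Fosl2, Jun and Jund.

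Fos is the founding member of the family and the gene most used as a marker of recently active neurons. It is located on chr12:85473890-85477273 of GRCm38. On the log2 scale its level was 4.30, 3.78 and 3.89 in Control replicates 1, 2 and 3 and 2.69, 2.22 and 2.22 in MA replicates 1, 2 and 3. Replicate 1 was the highest library in each group, and the lowest control library was above the highest MA library by 1.09. The log2 difference of Fos was -1.61 (95% interval -2.04 to -1.19, limma adjusted p = 0.0315). On the linear scale the means of Fos were 15.1 ± 3.14 RPKM in Control and 4.26 ± 1.03 RPKM in MA (SD, n = 3 each).

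Fosb, the member with the pattern nearest to that of Fos over these libraries, lies on chr7:19302696-19310051. Its log2 level was 3.23, 2.92 and 3.01 in the control libraries and 1.78, 1.81 and 1.60 in the MA libraries, in the order of the replicates. The groups were 1.10 apart at their nearest libraries, a gap larger than the SD of 0.16 in Control and 0.11 in MA. The log2 difference of Fosb was -1.32 (95% interval -1.60 to -1.04, limma adjusted p = 0.0244), and only 3 of the tested genes had a smaller p-value. On the linear scale Fosb fell from 7.33 ± 0.941 to 2.33 ± 0.258 RPKM (SD, n = 3 each).

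Junb, a partner of Fos and Fosb that activates less strongly than Jun on many promoters, lies on chr8:84974484-84978718. Its log2 level was 6.59, 6.13 and 5.97 in the control libraries and 4.86, 4.85 and 5.18 in the MA libraries, in the order of the replicates. Control replicate 1 was again the highest control library, while the highest MA library was replicate 3. The log2 difference of Junb was -1.26 (95% interval -1.67 to -0.86, limma adjusted p = 0.0456). On the linear scale the means were 75.3 ± 17.7 RPKM in Control and 30.4 ± 4.23 RPKM in MA (SD, n = 3 each). The annotated 3′ exon of Junb shares 173 bases, 7.52% of its exonic length, with Prdx2 on the other strand. Prdx2, an antioxidant enzyme, was at 7.72 in Control and 7.66 in MA on the log2 scale, above Junb. Its log2 difference was -0.061 (limma adjusted p = 0.910). The sources used here do not state whether reads were counted by strand, so reads of Junb and Prdx2 may be mixed over these bases.

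The calls of Fos, Fosb and Junb depended on which libraries were in the fit, although their log2 differences remained at or below -1.08 in the 6 fits that each left out 1 library. All 3 members passed without MA replicate 3, where 1.93% of all tested genes passed, against 0.263% with all libraries. Fos and Fosb passed without MA replicate 1, where 0.113% of all tested genes passed. None of the members passed without Control replicate 1, 2 or 3 or without MA replicate 2. Of all tested genes, 3 passed without Control replicate 1 and 0 without Control replicate 2 or 3 or MA replicate 2. In these fits 3 members still had an unadjusted limma p-value under 0.05. With all libraries in the fit, 5.46% of all tested genes had such a p-value and a lower level in MA. For Junb, the limma adjusted p-value lay between 0.0516 and 0.0590 under either smaller pseudocount (0.1, 0.01), when genes needed a mean level of 5, and when eBayes was run without trend. With no filter on low values none of the 3 passed, at limma adjusted p-values between 0.0614 and 0.0885.

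Fosl2 encodes Fra-2, a Fos protein without the strong activation domain of Fos. It lies on chr5:32135801-32157842, and its log2 level was 2.91, 2.99 and 3.23 in the control libraries and 3.03, 2.76 and 2.40 in the MA libraries, in the order of the replicates. MA replicate 1 lay within the control range and the other MA libraries below it. The log2 difference of Fosl2 was -0.31 (95% interval -0.72 to 0.092, limma adjusted p = 0.595), an interval that holds both 0 and a decrease of more than 0.5.

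Jun, the prototype Jun protein and target of the JNK kinases, lies on chr4:95049034-95052222. Its log2 level was 5.27, 5.07 and 5.41 in the control libraries and 5.397, 5.416 and 5.128 in the MA libraries. The 2 groups covered nearly the same range, and the log2 difference was 0.062 (95% interval -0.22 to 0.35, limma adjusted p = 0.909). Jund lies on chr8:70698949-70700616, and its log2 level was 5.52, 5.71 and 5.65 in the control libraries and 5.83, 5.67 and 5.77 in the MA libraries. The log2 difference of Jund was 0.13 (95% interval -0.070 to 0.33, limma adjusted p = 0.664). The intervals of Jun and Jund do not reach a decrease of 0.3 on the log2 scale. The antisense gene Junos shares 232 exonic bases with Jun, and the antisense gene Gm11175 shares 877 bases, 52.6% of the exonic length, with Jund. The sources used here do not state whether reads were counted by strand, so reads of Jund and Gm11175, which is not analysed here, may be mixed.

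**Figure D2:**
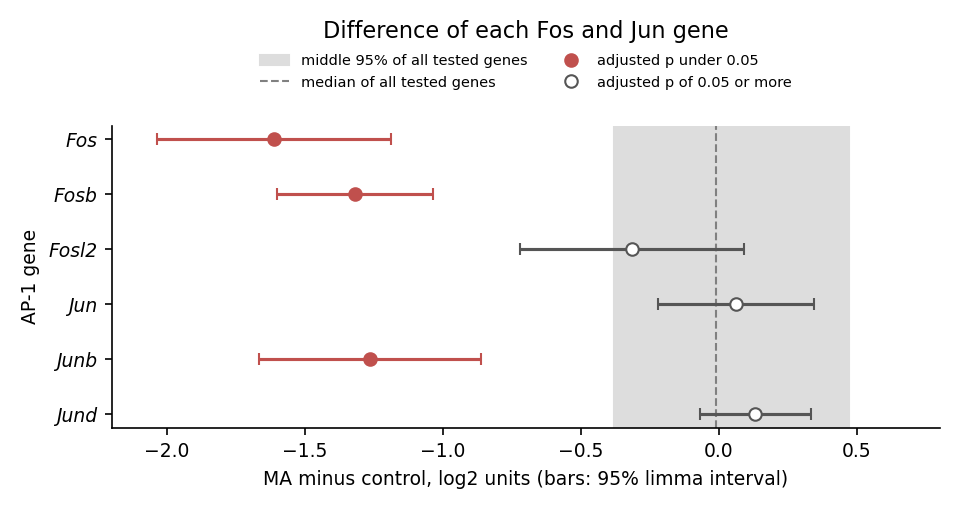
Difference between MA and Control on the x axis in log2 units for each gene, with 95% intervals from limma, filled red where the adjusted p-value was under 0.05. The intervals of Fos, Fosb and Junb lie wholly below the grey band from -0.38 to 0.47, which holds the middle 95% of the tested genes, and those of Fosl2, Jun and Jund reach into it.

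The order of the family by level differed between the groups. In the control libraries the back-transformed means were 75.3 RPKM for Junb, 48.5 for Jund, 37.3 for Jun, 15.1 for Fos, 7.33 for Fosb and 7.27 for Fosl2. Neighbours in this order did not overlap over the 3 libraries, except Fosb and Fosl2. In the MA libraries the order was 53.2 RPKM for Jund, 38.9 for Jun, 30.4 for Junb, 5.73 for Fosl2, 4.26 for Fos and 2.33 for Fosb. There, the ranges of Jun and Junb overlapped, as did those of Fosl2 and Fos. Junb was the most abundant member in 3 of 3 control libraries and Jund in 3 of 3 MA libraries. Fos was above Fosl2 in each control library and below it in each MA library.

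The same values were expressed as shares of the summed level of the 6 genes, which do not change when all levels of a library are multiplied by a constant. The share of Junb was 39.2% ± 5.62 in Control and 22.6% ± 3.49 in MA, and that of Fos was 7.85% ± 0.878 and 3.14% ± 0.641 (SD, n = 3 each). The share of Fosb was 3.83% ± 0.158 in Control and 1.73% ± 0.190 in MA. In turn, the share of Jund was 25.7% ± 3.90 in Control and 39.4% ± 1.22 in MA, and that of Jun 19.6% ± 2.82 and 28.9% ± 3.08. For these 5 members the groups did not overlap (exact permutation test, two-sided, p = 0.1, the smallest p that 3 libraries against 3 allow). The share of Fosl2 was 3.85% ± 0.760 in Control and 4.23% ± 0.960 in MA, where the groups overlapped (p = 0.7 by the same exact test). Shares are relative to the sum, so those of Jun and Jund are higher in MA while their levels differ by less than 10% of control.

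The summed level of the 6 genes was between 179 and 211 RPKM in the control libraries and between 131 and 140 RPKM in the MA libraries. The MA mean was 70.7% of the control mean. For the Fos subfamily (Fos, Fosb and Fosl2) it was 41.5%, with sums between 26.2 and 33.5 RPKM in Control and between 9.96 and 15.04 RPKM in MA. For the Jun subfamily it was 76.1%. The groups did not overlap in any of the 3 sums (exact permutation test, two-sided, p = 0.1 each). Fos proteins pair mainly with Jun proteins, and Jun transcripts outweighed Fos transcripts in each library. The Fos subfamily made up 15.5% ± 0.779 of the summed level in Control and 9.10% ± 1.62 in MA (SD, n = 3 each).

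**Figure D3:**
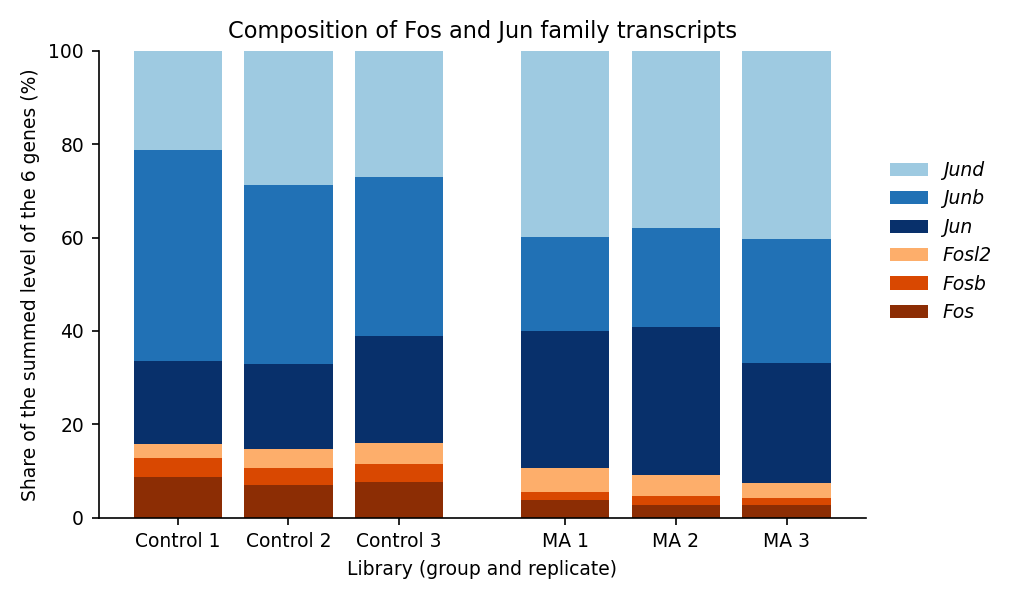
Share of each gene, in percent on the y axis, of the summed back-transformed level of the 6 genes in each of the 6 libraries on the x axis. Junb has the widest segment in each Control bar and Jund in each MA bar, and the Fos, Fosb and Fosl2 segments together are shorter in the MA bars.

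Members were compared with each other by the log2 ratio of their levels within a library, over 15 pairs. The 3 members that fell did not separate from each other. Between the groups, the log2 ratio of Fos to Fosb differed by -0.18 (standard error 0.19), that of Fos to Junb by -0.54 (standard error 0.28) and that of Fosb to Junb by -0.36 (standard error 0.24), each with overlapping groups. The ratio of Jun to Jund differed by -0.070 (standard error 0.18).

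The log2 ratio did not overlap between the groups in 9 of the 15 pairs. All of these but Fosl2 to Jund set Fos, Fosb or Junb against a member that did not pass. They therefore restate the differences of those 3 genes. The share of such pairs among all tested genes was not computed. The ratio of Fos to Jund had the greatest difference, from -1.70 ± 0.387 in Control to -3.67 ± 0.270 in MA (SD, n = 3 each), and that of Fosb to Jun went from -2.35 ± 0.198 to -4.06 ± 0.0126. Among the Jun genes, the log2 ratio of Jun to Junb was -0.995 ± 0.393 in Control and 0.36 ± 0.358 in MA. Fosl2 did not overlap with Fos, Fosb or Jund in its ratio, and its ratio to Junb overlapped. For each of the 9 pairs the exact permutation test gave the smallest p it allows (two-sided, p = 0.1, or 0.167 after Benjamini-Hochberg adjustment over 15 pairs), so no pair could reach 0.05.

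**Figure D4:**
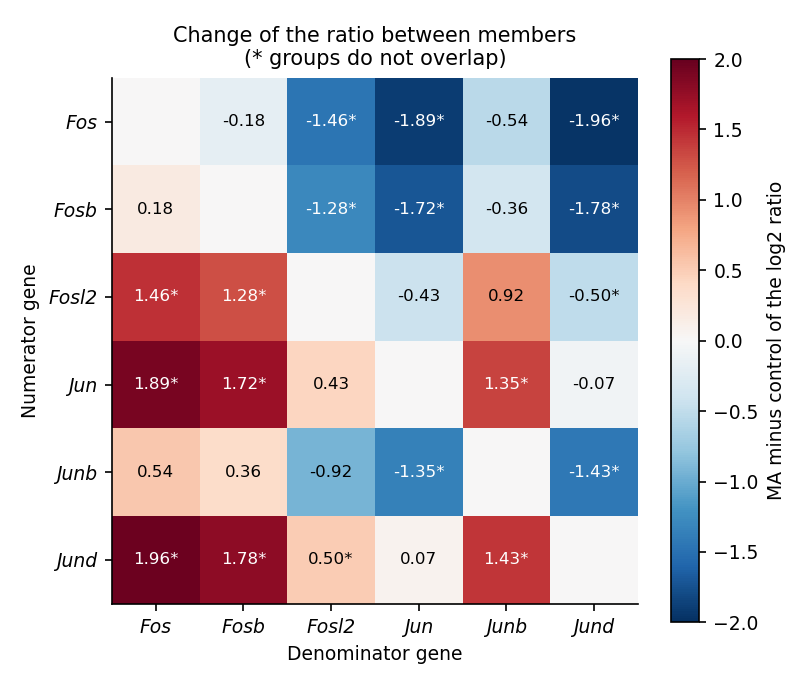
Difference between MA and Control in the log2 ratio of the gene on the y axis to the gene on the x axis, by color and number, for the 15 pairs of members shown in both directions, with an asterisk where the groups do not overlap. Ratios among Fos, Fosb and Junb differ by at most 0.54, and those of Fos or Fosb to Jun or Jund by 1.72 to 1.96.

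The other factors that pair with Fos or Jun proteins through the same bZIP domain did not pass the test. Of 16 listed genes, 14 were tested, 0 passed an adjusted p-value under 0.05 (limma) and 2 had an unadjusted p-value under 0.05, both lower in MA, against 5.46% of all tested genes. Their median log2 difference was -0.15. Atf3, a stress-induced partner, was at 1.007 ± 0.241 and 0.61 ± 0.291 on the log2 scale in Control and MA (SD, n = 3 each, limma adjusted p = 0.521). Jdp2, which represses AP-1 sites as a dimer with Jun proteins, was at 5.06 ± 0.0819 and 4.73 ± 0.0860 (limma adjusted p = 0.257). Its level was lower in each MA library than in each control library, as in 10.2% of all tested genes. Mafa had a log2 difference of -0.35. The remaining Fos gene Fosl1 was low, at 1.69 ± 0.0775 and 1.42 ± 0.336 (limma adjusted p = 0.655). At the upper end of the list were Batf3, with 0.077, and Mafg, with 0.054.

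The genes that act on Fos and Jun were described in the same way. Of 17 activators of their transcription, 0 passed (limma, adjusted) and 3 had an unadjusted p-value under 0.05, all lower in MA, as did 5.46% of all tested genes. These 3 were Creb1, which encodes the factor that binds the cAMP response element, Crem and Srf, the serum response factor. Their log2 differences were -0.44, -0.34 and -0.27, with limma adjusted p-values between 0.323 and 0.350, and each MA library was below each control library, as in 10.2% of all tested genes. Mkl1, a coactivator of Srf, and Elk1 were at the upper end with 0.15 and 0.098. The median over the 17 genes was -0.020. Among 20 tested kinases and scaffolds of the ERK, JNK, p38 and GSK3 pathways, 0 passed and 0 had an unadjusted p-value under 0.05 (limma), with a median of 0.060. Their values ran from -0.27 for Rps6ka3 and -0.11 for Mapk14 to 0.15 for Rps6ka1 and 0.22 for Rps6ka4.

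Of 10 genes for the decay of Fos and Jun mRNA or the turnover of their proteins, 0 passed (limma, adjusted). An unadjusted limma p-value under 0.05 was found for 1 with a lower level in MA (5.46% of all tested genes) and for 2 with a higher level. In either direction, 1392 of the 13321 tested genes had such a p-value. Zfp36, tristetraprolin, which speeds the decay of AU-rich mRNAs such as that of Fos, was at 1.30 ± 0.0555 in Control and 1.56 ± 0.0860 in MA (SD, n = 3 each, limma adjusted p = 0.458). Hnrnpd, another protein that binds AU-rich mRNA, had a log2 difference of 0.26 (limma adjusted p = 0.289). Both genes were higher in each MA library than in each control library, as were 7.32% of all tested genes. Elavl1, which stabilizes such mRNAs, had a log2 difference of -0.24 and Det1, part of a ubiquitin ligase for Jun, one of -0.19.

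Of 20 genes known as AP-1 targets, 19 were tested, 0 passed (limma, adjusted) and 3 had an unadjusted p-value under 0.05, all lower in MA, again against 5.46% of all tested genes. The median log2 difference was -0.10. The 3 genes were Plaur, the urokinase receptor, Nptx2, a secreted pentraxin of excitatory synapses, and Bdnf, a neurotrophin. They had log2 differences of -0.96, -0.51 and -0.36 and limma adjusted p-values of 0.219, 0.252 and 0.354. The opioid precursors Penk and Pdyn had log2 differences of -0.036 and -0.20. The metallothionein Mt2 and the kinase gene Cdk5 were at the upper end with 0.16 and 0.20.

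Among 30 other immediate early genes, 5 passed an adjusted p-value under 0.05 (limma), all lower in the libraries labelled MA. Of all tested genes, 0.0976% passed with a lower level there. A difference below 0 was found in 29 of the 30 genes, as in 52.7% of all tested genes. Each MA library was below each control library in 22 of them, against 10.2% of all tested genes. The median log2 difference was -0.70. The 5 genes were Arc, an effector of synaptic plasticity, with -1.80, Egr1, a zinc finger factor, with -1.46, Nr4a1, an orphan nuclear receptor, with -1.45, Gadd45b with -0.90 and Klf10 with -0.70. Gadd45g and Ier3 were at the upper end with -0.025 and 0.12. The direction rests on the same doubtful labels as that of the members. The list was written with earlier results of these libraries known and is not independent evidence of a direction.

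**Figure D5:**
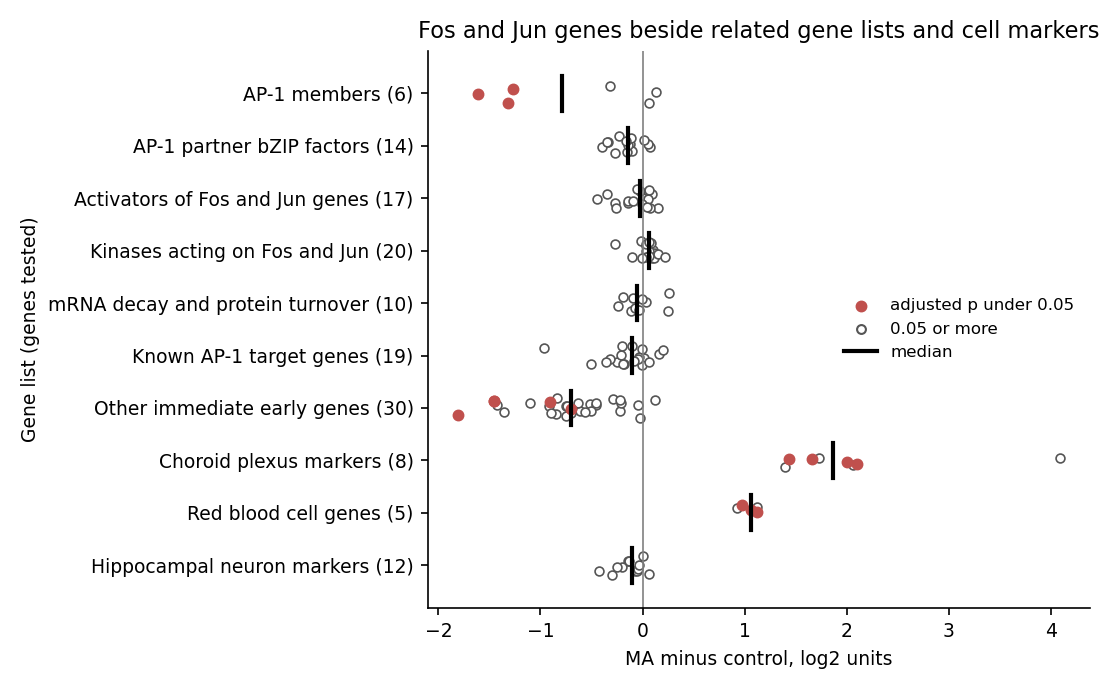
Difference between MA and Control in log2 units on the x axis for each tested gene (points) of the lists on the y axis, with the number of genes tested in parentheses, the median as a black bar and red points where the adjusted p-value was under 0.05. The medians are -0.79 for the 6 AP-1 members, -0.70 for the other immediate early genes, between -0.15 and 0.060 for the 5 other AP-1 lists, 1.86 for the choroid plexus markers and 1.06 for the red blood cell genes.

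For each member, the tested genes with the most similar pattern over the 6 libraries were found by the root-mean-square (RMS) difference of mean-centred log2 values. This measure describes likeness in these 6 libraries only. For Fos these were Arc (RMS difference 0.124), Nr4a1 (0.134) and Egr1 (0.156), and the nearest member was Fosb (0.215), while Fos itself varied by 0.835 about its mean. For Fosb they were Nr4a1 (0.126), Egr1 (0.137) and Sdf2l1 (0.167), a gene of the endoplasmic reticulum. For Junb they were Egr4 (0.0738), Sdf2l1 (0.128) and Egr2 (0.153).

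Fosl2, Jun and Jund had other neighbours. For Fosl2 these were Mtmr4 (RMS difference 0.0402), a lipid phosphatase, Gja1 (0.0467), the gap junction protein connexin of astrocytes, and Spred1 (0.0574), an inhibitor of ERK signalling. For Jun they were Srp54b (0.0169), Zc3h14 (0.0380) and Rnmt (0.0394), where Srp54b has near-identical copies and is uncertain. For Jund they were Dusp28 (0.0203), Snx32 (0.0230) and Ankrd42 (0.0248). Jun and Jund varied by only 0.139 and 0.0974 about their means, so many genes that hardly vary are close to them by this measure.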

How the data were processed

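HIPP RNA in 3 Control and 3 MA libraries was analysed, with groups and replicate numbers from the sample titles. According to the study's methods, reads were aligned with Hisat2, counted with featureCounts and converted to FPKM, whereas the submitters' processing notes name Bowtie 0.12.2 and the builds mm8 and mm9. The authors deposited 1 table named as RPKM whose values are logarithms, taken here to be log2 with an offset of 1. A normalization between libraries was inferred from the values and is not described. No other value column was present (0 unused), and the depth is unknown.

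Genes that reached a linear level of 0.5 in 3 or more libraries were tested with limma 3.58.1 in R 4.3.3 (lmFit, eBayes with trend, no covariate, Benjamini-Hochberg adjustment over all 13321 genes, threshold 0.05). The code was tested on simulated data. Ratios and shares used exact two-sided permutation tests in scipy 1.17.1. The 6 members and all gene lists were chosen with earlier results of these data known. Genes named are the members, called genes, the 2 lowest and 2 highest of each list described, the 3 nearest patterns per member and overlapping genes. Penk, Pdyn, Fosl1, Jdp2, Atf4, Srf, Bdnf and Rorb were named after their values were seen. Gene coordinates are from GENCODE M21 on GRCm38, and promoter sequences from RefSeq on GRCm38.p6, where all 6 members matched. Both are for location only, since the build behind the table is uncertain. Each library was taken as 1 mouse. Alternatives were other pseudocounts, filters, scalings and weights, the replicate block and leaving out each library.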

Additional observations from a re-analysis of the deposited data

How the results depend on the processing

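The log2 differences of Fos, Fosb and Junb stayed negative under all 15 alternatives that gave a value, and those of Fosl2 and Jund kept their sign too. Jun ran from -0.028 without Control replicate 2 to 0.15 without MA replicate 3. With a minimum mean of 5, Fosb was not tested. The number of members called was 3 in the main analysis, 0 with no filter, 1 (Fos) with a minimum mean of 5 and between 0 and 3 with 1 library left out. Over all tested genes, 35 were called, against 3 with no filter, 20 with a minimum mean of 5, 586 with sample quality weights, which gave MA replicate 3 a weight of 0.194, and between 0 and 257 with 1 library left out (0 without Control replicate 2 or 3 or MA replicate 2, where the causes were not tested). The replicate numbers are not said to pair mice, and libraries with a shared number, each centred on its group mean, had correlations of -0.197, -0.242 and -0.337. With the replicate block, 1 member (Fos) and 15 genes were called. The 9 separated pairs became 10 when no offset was removed and between 10 and 12 with fewer libraries, where separation is easier. The share of Fosb differed by -1.86 percentage points with no offset removed, against -2.10, and by between -2.197 and -2.01 with 1 library left out. Other shares moved by less than the spread between libraries with no offset removed. The other immediate early genes called ranged from 0 to 19 over the alternatives, and the 5 other AP-1 lists had at most 1 call each, with sample quality weights. The cause of these changes was not tested. Library depth is unknown, so no limit from counting can be given.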
